A study of Macaca mulatta with 22 samples.

Results

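The genes described here are 10 genes known for their roles in oocytes and the germ line: the transcription factor genes FIGLA, NOBOX, LHX8 and SOHLH1, the TATA-binding protein paralogue gene TBPL2, the RNA regulators DAZL, DDX4 and MAEL, and the chromatin genes H1FOO and NPM2. They were chosen by name, and each was matched to 1 of the 35468 entries of a deposited expression table. The table covers 22 single rhesus macaque (Macaca mulatta) oocytes and embryos at 9 stages. Of the 7 oocytes, 2 were at the germinal vesicle stage (GV), 2 in metaphase I (MI) and 3 in metaphase II (MII), and per the labels they came from superovulated donors after death. The 15 embryos were made by sperm injection and cultured. Of these 3 were pronuclear (PN), 2 had 2 cells (2C), 3 had 4 cells (4C) and 2 had 8 cells (8C), while 3 were morulae (Mo) and 2 were blastocysts (Bl). A library is named below by its stage and number (GV-1 is the first GV oocyte). Each library is 1 oocyte or 1 whole embryo, no agent or genotype separates the groups, and no label names an animal, so p-values measure the spread between single oocytes and embryos only. The oocytes and the embryos, MII and PN among them, also differ in source, which cannot be told apart from fertilization.

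In mammalian ovaries FIGLA, NOBOX, LHX8 and SOHLH1 switch on the genes of the growing oocyte, among them those of the zona pellucida, the oocyte's coat. A growing oocyte stores transcripts, the full-grown oocyte is nearly silent, and the stored RNA is used, degraded and replaced once the embryo transcribes its own genome. DAZL, DDX4 (VASA) and MAEL act on RNA in germ cells, the last 2 of them in the silencing of transposons by piRNAs. H1FOO is the linker histone of the oocyte, and NPM2 is a nucleoplasmin that handles histones and acts on sperm chromatin after fertilization.

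Values are RPKM, reads scaled to transcript length and to library size, so each is a share of a library. A lower value can mean fewer transcripts of the gene or more of the others, and transcript number and poly(A) tail length, on which the amplification kit primes, cannot be told apart either. Depth estimated from low values was 5.595 to 21.43 M reads per library. Library Mo-2 stood apart, with 4277 entries at 1 RPKM or more against 6763 to 10017 in the others. Summed RPKM of 8 oocyte marker genes was 4769 to 9690 in oocytes and 139.7 to 675.1 in 8C to Bl. In Bl it was 245.8 and 568.8, nearly all of it OOEP (233.7 and 551.9), whose mean in 8C was 65.2. The sum of 5 genome activation genes was at most 18.68 up to 4C and at least 198.1 from 8C on. Of 15 cumulus and granulosa cell markers, 7 were below 1 RPKM in every library, and AMH, FOXL2 and PTX3 were at 0 in all. The sum of the 15 was 22.62 to 92.66 in oocytes, mostly TNFAIP6 (up to 90.4), 6.289 to 28.12 in PN to 4C and 4.369 to 84.39 in 8C to Bl, and its part in the results below was not tested. The sum of 8 sperm markers was at most 2.355 up to 4C, and in 8C it was 5.447 and 45.16, nearly all of it TNP1 (5.431 and 45.163), which was called higher from 4C to 8C (log2 change 4.11, limma adjusted p = 6.5e-06). Its part in the results at 8C was not tested.

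The 10 genes fell into distinct time courses. FIGLA, LHX8, TBPL2 and NPM2 were highest in GV oocytes and lower by MII, before fertilization. H1FOO was highest in MII oocytes. DAZL, DDX4 and MAEL were not called in any step up to 4C, with DDX4 varying between 16.1 and 128 RPKM over these libraries, and DDX4 was still at 10.9 RPKM or more in both blastocysts. NOBOX and SOHLH1 were at or near 0 in most libraries.

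**Figure D1:**
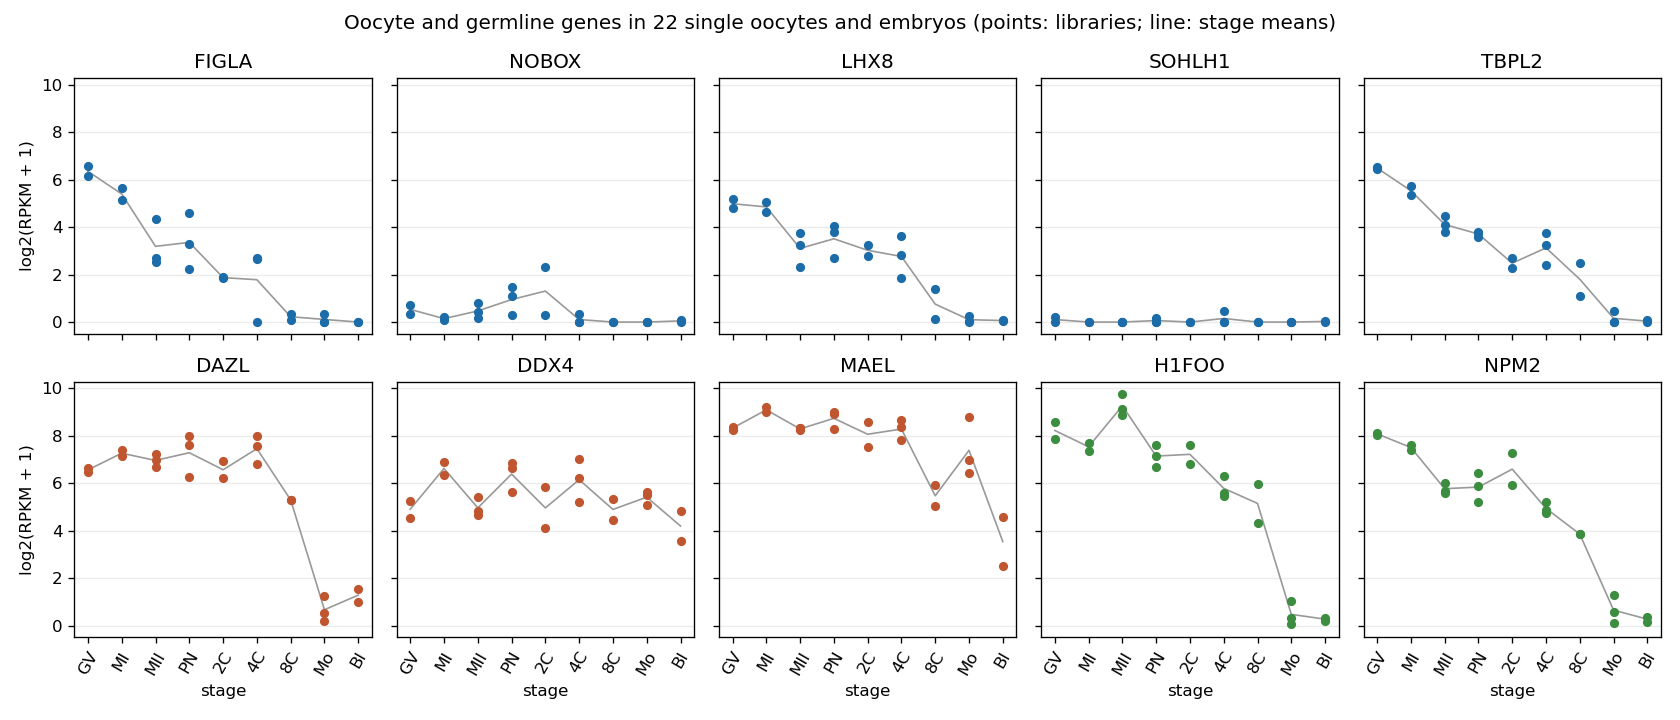
Each panel is 1 gene, with stage on the x axis and log2(RPKM + 1) on the y axis; points are single libraries and the line joins stage means. FIGLA, LHX8, TBPL2 and NPM2 descend from GV, H1FOO peaks at MII, DAZL and MAEL drop after 4C, and DDX4 goes up and down between stages.

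Stages were compared with limma on log2(RPKM + 1), and a gene was called at a 2-sided adjusted p under 0.05 over the 14312 entries with 1 RPKM or more in 2 libraries or more. Of the 10 genes 9 met that filter, and SOHLH1 did not. Broad groups were also compared: oocytes (GV, MI and MII, 7 libraries), early embryos (PN, 2C and 4C, 8 libraries) and late embryos (8C, Mo and Bl, 7 libraries). From oocytes to early embryos 5 of the 9 genes were lower (FIGLA, LHX8, TBPL2, H1FOO and NPM2) and 0 higher, where 15.3% of all tested entries were lower and 3.56% higher. The median log2 change was -1.215 over the 9 genes and -0.166 over all entries. This comparison includes changes within the oocytes. From MII to PN only H1FOO of the lower genes was called. FIGLA, LHX8, TBPL2 and NPM2 changed there by 0.17, 0.41, -0.40 and 0.07, and were called lower from GV to MII. From early to late embryos all 9 tested genes were lower, where 32.5% of all entries were lower and 25.7% higher, and the medians were -2.792 and -0.154. NOBOX met the filter only through early embryos (PN-1, PN-2 and 2C-2). Its call as lower is therefore not independent of the filter, and the count and median include it. Both comparisons use the same 8 early embryos. A limma F test over the 9 stages called 8 of the 9, all except NOBOX (adjusted p = 0.0834), against 68.3% of all entries.

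**Figure D2:**
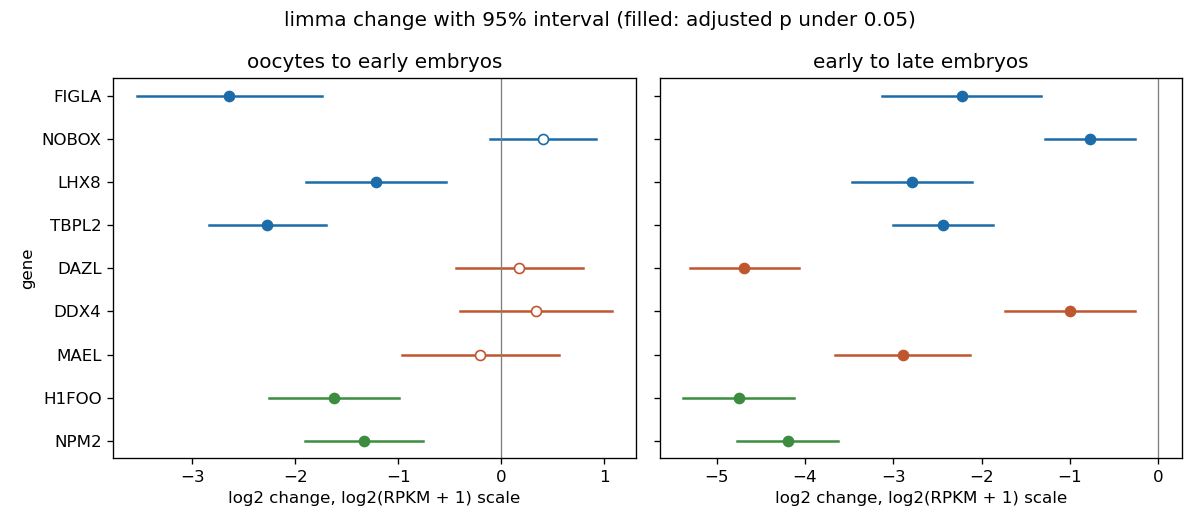
For each of the 9 tested genes (y axis), the x axis gives the limma log2 change on the log2(RPKM + 1) scale with its 95% interval, from oocytes to early embryos (left) and from early to late embryos (right); filled points have an adjusted p under 0.05. On the left DAZL, DDX4, MAEL and NOBOX span 0, and on the right every interval lies below 0.

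Between neighbouring stages the calls came at a few steps. From GV to MI limma called 0 of the 9 genes at an adjusted p under 0.05, where 0.587% of all entries were called in either direction. At an unadjusted p under 0.05 it was 1 gene, and no share of all entries is given at that cutoff. From MI to MII 1 was higher (H1FOO, background 1.49%) and 1 lower (NPM2, 6.99%). Across the whole of maturation, GV to MII, 4 were lower (FIGLA, LHX8, TBPL2 and NPM2), where 8.97% of all entries were. From MII to PN 1 was lower, H1FOO, against 2.91%. From PN to 2C and from 2C to 4C limma called 0 of the 9, where 0.468% and 0.573% of all entries were called at an adjusted p under 0.05. At an unadjusted p under 0.05 it was 2 and 3 genes, again with no share of all entries beside them.

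From 4C to 8C 4 genes were lower (DAZL, LHX8, MAEL and TBPL2), where 10.2% of all entries were. From 8C to Mo 4 were lower (DAZL, H1FOO, NPM2 and TBPL2), against 20%, and 1 was higher, MAEL, against 5.39%. From Mo to Bl only MAEL of the 9 was called, lower, where 2.12% of all entries were. Without Mo-2, the sparse library, the calls from 8C to Mo were -4.56 for DAZL, -4.59 for H1FOO, -2.93 for NPM2, -1.57 for TBPL2 and 2.40 for MAEL, and the one from Mo to Bl was -4.33 for MAEL. The calls between single stages rest on 2 or 3 libraries a stage, and those that 1 library decides are given with each gene below.

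FIGLA, a basic helix-loop-helix factor that activates the zona pellucida genes (ENSMMUG00000020852, chromosome 13, 71085594 to 71097723 as deposited), was 93.2 and 69.6 RPKM in the GV oocytes and 34.3 and 49.2 in MI. In MII it was 4.81, 19.4 and 5.42, and in PN 3.66, 22.9 and 8.65. All MII oocytes lay below all GV and MI oocytes, and MII-2 and PN-2 were the high libraries of their stages. From GV to MII FIGLA fell by 3.16 ± 0.74 on the log2 scale (SE, limma adjusted p = 0.011), and the call ended without GV-1 (adjusted p = 0.134) or GV-2 (0.0634). FIGLA was 2.72 and 2.61 in 2C and 0, 5.44 and 5.34 in 4C. From 8C on it was at most 0.27 in every library, and both blastocysts were at 0. Its log2 change was -2.64 ± 0.43 from oocytes to early embryos (adjusted p = 0.00026) and -2.23 ± 0.43 from early to late embryos (adjusted p = 0.00022), each with overlapping groups.

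LHX8, a LIM-homeobox factor of the oocyte (ENSMMUG00000005287, chromosome 1, 77936206 to 77969047), was 34.9 and 27.0 RPKM in GV and 23.7 and 32.8 in MI. It was 12.4, 4.05 and 8.42 in MII, below every GV and MI oocyte. From GV to MII it fell by 1.88 ± 0.56 on the log2 scale (adjusted p = 0.04), a call that ended without GV-1 (adjusted p = 0.286), GV-2 (0.142) or MII-2 (0.176), among others. LHX8 was 12.8, 5.53 and 15.3 in PN, 8.59 and 5.90 in 2C, and 2.62, 11.3 and 6.05 in 4C. Every one of these 8 embryos was above both 8C embryos, at 0.099 and 1.59. From 4C to 8C it fell by 2.01 ± 0.56 (adjusted p = 0.013), with the call ending without 8C-1 (0.192) or 4C-2 (0.061). In Mo and Bl it was at most 0.208. The log2 change of LHX8 was -1.21 ± 0.32 from oocytes to early embryos (adjusted p = 0.0127), a call that ended with median-of-ratios scaling (0.0912), a pseudocount of 0.1 (0.0977) or without the MI oocytes (0.0824), and -2.79 ± 0.32 from early to late embryos (adjusted p = 7.7e-07). The within-library ratio of FIGLA to LHX8 did not pass the test for a change between oocytes and early embryos (log2 change -1.29, exact permutation test, adjusted p = 0.0943 over 36 gene pairs).

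NOBOX, a homeobox factor of the early follicle (ENSMMUG00000020609, chromosome 3, 181716227 to 181718861), stayed under 1 RPKM in all 7 oocytes, from 0.069 to 0.749. This entry spans 39.3% of the length of NOBOX in the RefSeq annotation of assembly T2T-MMU8v2.0, and the part of that shorter gene model in its low values was not tested. It was 1.11, 1.75 and 0.238 in PN and 0.234 and 3.95 in 2C. From 4C on it was above 0 in 4C-1 (0.249) and Bl-1 (0.07) alone. Its values correspond to 140 reads in 14 libraries, 46 of them in 2C-2, at an estimated length of 1184 bp. That length was picked among the shortest that fit, and it left all values within 0.0292 of whole reads. A longer length would give more reads. On that scale the limit set by 3 reads was 0.118 to 0.453 RPKM. The change from early to late embryos was -0.77 ± 0.24 (adjusted p = 0.011) and rested on 2C-2 (adjusted p = 0.0553 without it). That call is not independent of the filter, which NOBOX met only through PN-1, PN-2 and 2C-2, all early embryos. From oocytes to early embryos NOBOX was not called (0.40, 95% interval -0.11 to 0.92).

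SOHLH1, a helix-loop-helix factor of the primordial follicle (ENSMMUG00000021495, chromosome 15, 2635375 to 2641706), was listed at 0 in 18 libraries. It was 0.16 RPKM in GV-1, 0.142 in PN-3, 0.37 in 4C-1 and 0.035 in Bl-2. These correspond to 6, 3, 10 and 1 reads at a length of 1988 bp, estimated as for NOBOX. At these depths 3 reads are worth 0.0704 to 0.27 RPKM, so a count of 0 allows a level up to that limit. Its partner SOHLH2 was far from that limit, at 108 and 83.5 in GV, 242, 290 and 281 in MII, and 97.7 to 156 in 4C.

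TBPL2 replaces TBP at promoters of the growing mouse oocyte. The macaque entry (ENSMMUG00000023041, chromosome 7, 118437914 to 118462617) was 90.7 and 87.2 RPKM in GV, 52.0 and 39.5 in MI, and 15.8, 12.8 and 21.3 in MII. The 3 oocyte stages did not overlap, and from GV to MII TBPL2 fell by 2.38 ± 0.47 (adjusted p = 0.0039, 0.0645 without GV-1). It was 11.0, 12.6 and 12.7 in PN, 5.46 and 3.82 in 2C, and 8.45, 4.30 and 12.3 in 4C. All 7 oocytes were above all 8 early embryos, by a narrow margin (12.813 in MII-2 against 12.736 in PN-3), whereas the groups overlapped for FIGLA, LHX8, H1FOO and NPM2. Its log2 change from oocytes to early embryos was -2.27 ± 0.27 (adjusted p = 1.3e-05). In 8C it was 1.16 and 4.65. The step from 4C to 8C (-1.32 ± 0.47, adjusted p = 0.047) overlapped, and the call ended in 20 of 28 alternatives, without 8C-1 at an adjusted p of 0.503. In 4 of the 5 morulae and blastocysts TBPL2 was at 0 or 0.054, and in Mo-3 it was 0.392. The step from 8C to Mo was -1.64 ± 0.47 (adjusted p = 0.014, 0.252 without 8C-2).

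TBP, the general TATA-binding protein, did not follow TBPL2. It was 73.6 and 61.4 RPKM in GV, 100.4 and 98.6 in MI, 37.2 to 49.5 in MII, and 47.5 to 71.1 in PN to 4C, and it was not called from oocytes to early embryos (-0.12 ± 0.27). In 8C to Bl it was 17.4 to 59.1, and its change from early to late embryos was -0.91 ± 0.27 (adjusted p = 0.0072). Of 2 entries named TBP 1 was used, and the part of the other was not tested. Against the entry used, TBPL2 exceeded TBP in both GV oocytes alone. The log2 ratio of TBPL2 to TBP, with 1 added to each, was 0.30 and 0.50 there, -0.94 and -1.30 in MI, and -1.48 to -1.18 in MII. It was -2.72 ± 0.72 (SD, n = 8) in early embryos and -4.47 ± 1.34 (n = 7) in late embryos. The difference of -1.75 passed a 2-sided exact permutation test over libraries (p = 0.00932, adjusted p = 0.00932 over 2 ratios). The groups overlapped, with the late library 8C-2 at -1.70, above every early embryo (highest -1.90, in 4C-3). In Mo and Bl TBPL2 was at most 0.392 RPKM, so the ratio there is set mainly by TBP. TBPL1, the third gene of the family, was 21.3 and 69.0 in GV and 301 and 339 in 2C, and its change from oocytes to early embryos was not called (1.59 ± 0.72, adjusted p = 0.142). TBPL1 was lower from early to late embryos (-2.32 ± 0.72, adjusted p = 0.0104). It was 45.1 and 80.0 in 8C, 81.2, 0.757 and 98.6 in Mo and 108 and 63.9 in Bl. The lowest of these was the sparse library Mo-2, and the call was not tested without it.

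TBP and TBPL1 belong to a list of core promoter recognition genes. Of 19 listed and tested, 0 were higher and 2 lower from oocytes to early embryos: GTF2B, which joins TBP at promoters (-1.57 ± 0.25, adjusted p = 0.00019), and the TFIIA subunit gene GTF2A2 (-1.24 ± 0.30, adjusted p = 0.0066). Of all entries 15.3% were lower and 3.56% higher, and the median was -0.122 for the list against -0.166 over all entries. In late against early embryos 7 of the list were lower and 2 higher, with a median of -0.525. In that comparison 32.5% of all entries were lower and 25.7% higher. The TFIID subunit gene TAF3 fell by 2.26 and TAF4 by 1.62 on the log2 scale (adjusted p = 3.3e-06 and 0.00012), while TAF11 rose by 1.69 and TAF2 by 1.36 (0.00024 and 0.001).

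**Figure D3:**
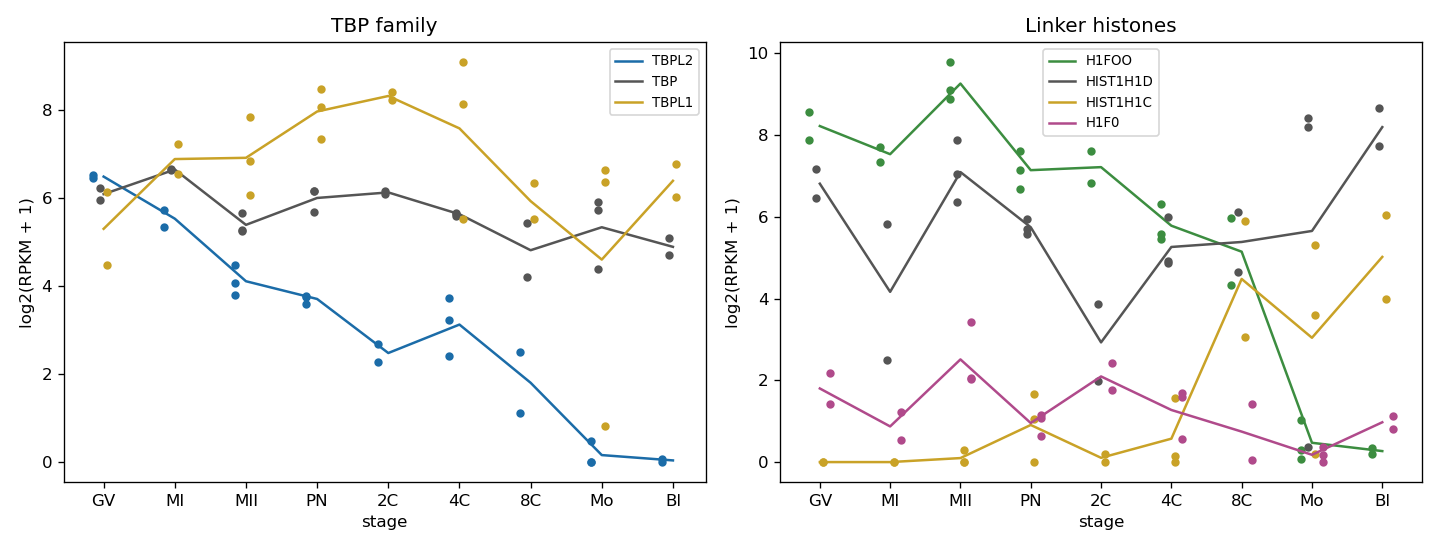
Left, TBPL2 with TBP and TBPL1; right, H1FOO with the linker histones HIST1H1D, HIST1H1C and H1F0; the x axis is stage, the y axis log2(RPKM + 1), points are libraries and lines join stage means. TBPL2 starts level with TBP at GV and ends near 0, H1FOO drops from 8C to Mo, and HIST1H1C is at most 2.16 RPKM before 8C.

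Genes that depend on FIGLA, NOBOX or LHX8 in mouse oocytes were read beside them. Of 12 listed, 11 were tested and H1FOO, one of the 10 genes here, is among them. From oocytes to early embryos 5 were lower and 0 higher (median -0.979), where 15.3% of all entries were lower and 3.56% higher. PADI6, a component of oocyte cytoplasmic lattices, was 515.7 and 354.7 RPKM in GV, 52.3, 55.3 and 84.3 in MII, and changed by -2.11 ± 0.25 (adjusted p = 1.4e-05). The zona gene ZP3 changed by -3.10 ± 0.44 (adjusted p = 7.6e-05), ZP2 by -1.91 and ZAR1, a maternal RNA-binding protein gene, by -2.03 (0.00039 and 0.00044); the fifth was H1FOO itself. The secreted factor genes GDF9 (IMMRNTR2410) and BMP15 were not called in that step (0.33 and 0.77). From early to late embryos both were among the 8 of the list that were lower, with log2 changes of -5.25 and -4.87 (adjusted p = 4.5e-11 and 3.4e-10). Of all entries 32.5% were lower and 25.7% higher in that step. POU5F1, the pluripotency factor gene, was the 1 higher in that step (1.19 ± 0.44, adjusted p = 0.0259).

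Of 10 further transcription regulators of oocytes, 7 were tested and 0 were called from oocytes to early embryos by limma at an adjusted p under 0.05 (1 at an unadjusted p under 0.05). Of all entries 15.3% were lower and 3.56% higher there at an adjusted p under 0.05, and no share is given at an unadjusted p. In the later comparison 3 of the 7 were lower and 1 higher, where 32.5% of all entries were lower and 25.7% higher. SOHLH2 was 14.7 and 59.0 RPKM in 8C, 4.08, 0.138 and 5.73 in Mo and 20.7 and 20.01 in Bl, a change of -3.59 ± 0.35 (adjusted p = 9.3e-08). OTX2, a homeobox gene, was 1190 in 2C-2 and 325.7 to 990.7 in 4C, then at most 14.002 in Mo and Bl (-4.76 ± 0.37, adjusted p = 4.8e-09), and FOXO3, which holds follicles dormant, changed by -1.31. SALL4, a zinc finger gene of early embryos, was higher (1.49 ± 0.36, adjusted p = 0.0017). TAF4B, a TFIID subunit gene of the gonads, was not called in either comparison and had its highest value, 65.1, in Mo-2.

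DAZL, an RNA-binding protein that controls translation in germ cells (ENSMMUG00000011361, chromosome 2, 158906141 to 158924764), did not fall before 8C. It was 98.1 and 88.6 RPKM in GV, 167 and 139 in MI, 148, 126 and 100 in MII, 193, 76.2 and 251 in PN, 119 and 73.3 in 2C, and 190, 112 and 249 in 4C. Oocytes and early embryos overlapped, and the log2 change between them was 0.17 (95% interval -0.44 to 0.79, adjusted p = 0.784). In 8C both embryos were near 38 RPKM, 37.9 and 38.5, below all 15 earlier libraries, and the change from 4C was -2.16 ± 0.51 (adjusted p = 0.0039). In Mo it was 0.15, 0.457 and 1.39 and in Bl 1.01 and 1.93. The step from 8C to Mo was -4.63 ± 0.51 (adjusted p = 1.7e-06), and both calls held in all 28 alternatives.

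DDX4, an RNA helicase of germ granules (ENSMMUG00000017386, chromosome 6, 53402823 to 53474254), went on into the blastocyst. It was 22.4 and 37.2 RPKM in GV, 118 and 80.2 in MI, 24.3, 41.2 and 27.1 in MII, and 99.7, 48.7 and 115 in PN. MI lay above GV and MII, and PN above MII, without overlap. None of these steps was called in the fit of all stages (GV to MI 1.72 ± 0.67, adjusted p = 0.639, and MII to PN 1.42 ± 0.55, 0.127). It was 55.5 and 16.1 in 2C, 72.7, 36.2 and 128 in 4C, and 20.7 and 39.7 in 8C, with wide spread inside each stage. In Mo it was 48.6, 44.8 and 32.8 and in Bl 27.1 and 10.9. Its change from early to late embryos (-0.996 ± 0.35, adjusted p = 0.0212) overlapped between groups, and the call ended with median-of-ratios scaling (adjusted p = 0.255) or without 2C-1 (0.103), 8C-1 (0.0724) or Bl-2 (0.0843).

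MAEL, a protein of the piRNA pathway (ENSMMUG00000023463, chromosome 1, 196707849 to 196741305), had the highest mean of the 3 at each stage up to Mo, and a lower mean than DDX4 in Bl. It was 305 and 330 RPKM in GV, 503 and 587 in MI, 297, 317 and 319 in MII, 512, 311 and 477 in PN, 382 and 185 in 2C, and 332, 221 and 403 in 4C. Oocytes and early embryos overlapped (log2 change -0.21, 95% interval -0.97 to 0.56). In 8C it was 59.5 and 31.4, below every earlier library (-2.81 ± 0.63 from 4C, adjusted p = 0.0028). The morulae were at 124, 83.9 and 436, all above both 8C embryos, and the step was called as a rise of 1.92 ± 0.63 (adjusted p = 0.0312). That call ended without Mo-3, the library at 436 (adjusted p = 0.138), and without 8C-2 (0.231). In Bl it was 4.68 and 22.7, below all morulae (-3.85 ± 0.63, adjusted p = 0.00033).

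Other piRNA pathway and germ granule genes were read from a list of 25, of which 20 were tested. From oocytes to early embryos 4 were lower and 0 higher, with a median of -0.348 against -0.166 over all entries. Of all entries 15.3% were lower and 3.56% higher. TDRD12, a tudor domain protein gene of piRNA formation, was 8.28 and 7.14 RPKM in GV, 2.22 to 2.67 in MII and at most 0.919 in early embryos (-1.87 ± 0.19, adjusted p = 2.1e-06). TDRD7, another tudor gene, went from 25.6 to 49.4 in MII to 6.99 to 11.1 in PN (-1.74 ± 0.31 from oocytes to early embryos, adjusted p = 0.00058). The others were GPAT2 and TEX15, by -0.97 and -0.64 (0.0217 and 0.045). From early to late embryos 11 were lower and 1 higher (median -1.096), where 32.5% of all entries were lower and 25.7% higher. HENMT1, which methylates the ends of piRNAs, changed by -4.26 ± 0.34 (adjusted p = 7.4e-09), and the PIWI genes PIWIL3 and PIWIL1 by -2.97 and -2.45 (3.3e-08 and 9.9e-07). GTSF1, a cofactor of PIWI proteins, was 1180 to 2249 in early embryos, 313 and 182 in 8C, 3.15 to 42.9 in Mo and 453 and 132 in Bl (-4.08 from early to late embryos, adjusted p = 2.1e-07). The 1 higher was BOLL, a relative of DAZL, at 6.32, 5.87 and 2.25 in Mo and at most 0.106 in every early embryo (1.03 ± 0.19, adjusted p = 0.00019). It was 0 and 1.07 in 8C and 0.022 and 0.256 in Bl, so the morulae were its high libraries.

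The entry that the name table gives as H1FOO (ENSMMUG00000012736, chromosome 11, 85265931 to 85274403) lies on another chromosome than H1-8, the gene's current symbol, in the RefSeq annotation of T2T-MMU8v2.0. Its identity therefore rests on the name table alone. It was 378 and 234 RPKM in GV, 162 and 209 in MI, and 876, 551 and 474 in MII. The 3 MII oocytes were the highest of all 22 libraries. This up and down course was shared by other entries. H1FOO was 1 of 383 tested entries (2.68%) whose GV and MII values all lay on 1 side of every MI, PN, 2C and 4C value. The rise from MI was 1.73 ± 0.52 on the log2 scale (adjusted p = 0.0444), and the call ended in 15 of 28 alternatives, among them without MI-1 (0.293), MI-2 (0.17) or MII-1 (0.15). In PN it was 101, 140 and 193, below every MII and GV oocyte (-2.12 ± 0.46 from MII, adjusted p = 0.0081, 0.0537 without MII-1). It was 194 and 112 in 2C, 42.8, 78.7 and 46.7 in 4C, and 19.1 and 61.4 in 8C, stages that overlapped from 4C to 8C. In Mo it was 0.058, 0.23 and 1.05 and in Bl 0.153 and 0.259, so the step from 8C to Mo was -4.67 ± 0.52 (adjusted p = 1.9e-06). Between the broad groups H1FOO changed by -1.62 ± 0.30 from oocytes to early embryos (adjusted p = 0.00084) and by -4.75 ± 0.30 to late embryos (adjusted p = 3.2e-10), with overlap in both.

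A further entry that the file names H1FOO (IMMRNTR6166, chromosome 13, 21018950 to 21055050) did not show the MII peak. It was 36.3 and 42.0 RPKM in GV, 21.1 and 17.9 in MI and 16.3, 17.7 and 19.1 in MII. It was lower from early to late embryos, as the main entry was (-3.34 ± 0.22, adjusted p = 5.0e-10). Its name could not be checked either, and reads of similar copies can be split between such entries.

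NPM2 (ENSMMUG00000002034, chromosome 8, 21948942 to 21960203) was 275.9 and 262.7 RPKM in GV, 192 and 169 in MI, and 63.8, 50.5 and 47.3 in MII. These 3 stages did not overlap. It fell by 2.31 ± 0.47 from GV to MII (adjusted p = 0.005, 0.0747 without GV-1) and by 1.74 ± 0.47 from MI to MII (adjusted p = 0.0281, 0.208 without MI-1 and 0.152 without MI-2). In PN it was 36.2, 84.6 and 57.3, in 2C 59.2 and 153, and in 4C 35.5, 28.0 and 26.0. The 2C-2 embryo was the highest of the early embryos. NPM2 was 13.4 and 13.5 in 8C and 1.43, 0.071 and 0.485 in Mo (-3.20 ± 0.47, adjusted p = 5.1e-05), and 0.117 and 0.299 in Bl. Over the broad groups its change was -1.33 ± 0.27 from oocytes to early embryos, with overlap (adjusted p = 0.0021, 0.0569 with median-of-ratios scaling), and -4.20 ± 0.27 from early to late embryos, without overlap (adjusted p = 4.5e-10). H1FOO and NPM2 went opposite ways from MI to MII, the one called higher and the other lower.

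Linker histones of other cells were read from a list with the histone chaperones. Of 20 linker histone, nucleoplasmin and histone chaperone genes 16 were tested. From oocytes to early embryos 1 was higher, NPM1, the widely expressed nucleophosmin gene (0.82 ± 0.26, adjusted p = 0.0323), and 0 lower. Of all entries 3.56% were higher and 15.3% lower in that comparison. From early to late embryos 8 of the list were lower and 2 higher, where 32.5% of all entries were lower and 25.7% higher. HIST1H1C was at most 2.16 RPKM up to 4C, 58.2 and 7.41 in 8C, 11.1, 0.153 and 38.9 in Mo and 64.8 and 15.0 in Bl (3.65 ± 0.61, adjusted p = 5.0e-05), low among the late libraries in Mo-2. HIST1H1B (H1-5) was at most 0.403 in early embryos and 8.55, 0 and 16.0 in Mo (2.01 ± 0.40, adjusted p = 0.00034). Not all of these linker histones were low before 8C. HIST1H1D was 86.8 and 142 RPKM in GV, 4.66 and 55.8 in MI, 81.6 to 232 in MII and 2.96 to 62.9 in early embryos. Among the lower were the chaperone genes ASF1B (-2.91 ± 0.31, adjusted p = 2.3e-07), CHAF1A (-2.26, 1.0e-05) and NPM3, a relative of NPM2 (-1.34, 0.00055). The log2 ratio of H1FOO to H1F0, the linker histone of resting cells, was 5.29 ± 1.08 (SD, n = 8) in early and 1.18 ± 2.27 (n = 7) in late embryos. Its difference of -4.11 passed the exact permutation test (2-sided p = 0.00171, adjusted p = 0.00342), and both genes were close to 0 in Mo. H1F0 was at most 4.36 RPKM in early and 1.69 in late embryos, so the ratio mostly repeats the fall of H1FOO. In 8C the ratio was 4.27 and 4.53, within the range of early embryos (3.87 to 6.50).

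Whether the genes differed in their change from oocytes to early embryos was tested within libraries. For each pair of the 9 detected genes the log2 ratio was compared between 7 oocytes and 8 early embryos by a 2-sided exact permutation test, adjusted over 36 pairs. Of these 13 were called and 23 were not. How many pairs of all tested entries pass this test was not counted, so the number has no share beside it. The oocyte group includes GV and MI, so changes before fertilization enter these ratios. TBPL2 fell against each of the RNA regulators: by 2.54 against DDX4 and by 1.89 against MAEL (adjusted p = 0.0056 for both), and by 2.25 against DAZL (adjusted p = 0.0075). The p of TBPL2 against DDX4, 0.0001554, is the smallest the permutations can give. FIGLA also fell against DDX4, DAZL and MAEL, with changes of -2.85, -2.56 and -2.20 (exact permutation, adjusted p = 0.0196, 0.0349 and 0.0349), and all 3 RNA regulators rose relative to H1FOO, by 2.06 for DAZL, 2.34 for DDX4 and 1.69 for MAEL.

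The other 4 of the 13 pairs set the sparse NOBOX against FIGLA, TBPL2, H1FOO and NPM2, and mostly repeat the fall of those genes. Among DAZL, DDX4 and MAEL no pair was called, and the widest difference was 0.65 between DDX4 and MAEL (exact permutation, adjusted p = 0.0817). FIGLA and TBPL2 were not called apart either (-0.31, exact permutation, adjusted p = 0.676). Without single libraries the number of called pairs ran from 7 to 18.

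Each gene's stage of loss was set as the first stage from which every library, there and at all later stages, was below 10% of the gene's highest stage mean. By that rule FIGLA was lost at 2C, NOBOX, LHX8, TBPL2, H1FOO and NPM2 at 8C, DAZL at Mo and MAEL at Bl. DDX4 had no stage of loss, with blastocysts at 19.2% of its MI mean, and neither had SOHLH1, whose highest stage mean rests on 10 reads. By the rule 6 of the 10 were lost by 8C, but the loss of NOBOX cannot be read: 10% of its peak is 0.209 RPKM, and 3 reads are worth 0.453 in 8C-2. How many of all entries meet the rule was not counted, so this number has no share beside it. At 5% the number was 3, because LHX8, TBPL2 and H1FOO moved to Mo. At 25% the number was 7, with DAZL at 8C, NOBOX, H1FOO and NPM2 at 4C and TBPL2 at MII. With stage means in place of every library the number stayed at 6, but NOBOX and H1FOO moved to 4C and TBPL2 to 2C. FIGLA moved from 2C to 8C at 5% and with median-of-ratios scaling, which also moved H1FOO to Mo. H1FOO moved to Mo without MII-1 and to 4C without 4C-2, TBPL2 to 2C without 4C-3, and NOBOX to 4C without 2C-1 or 4C-1. SOHLH1 moved to 8C without Bl-2.

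**Figure D4:**
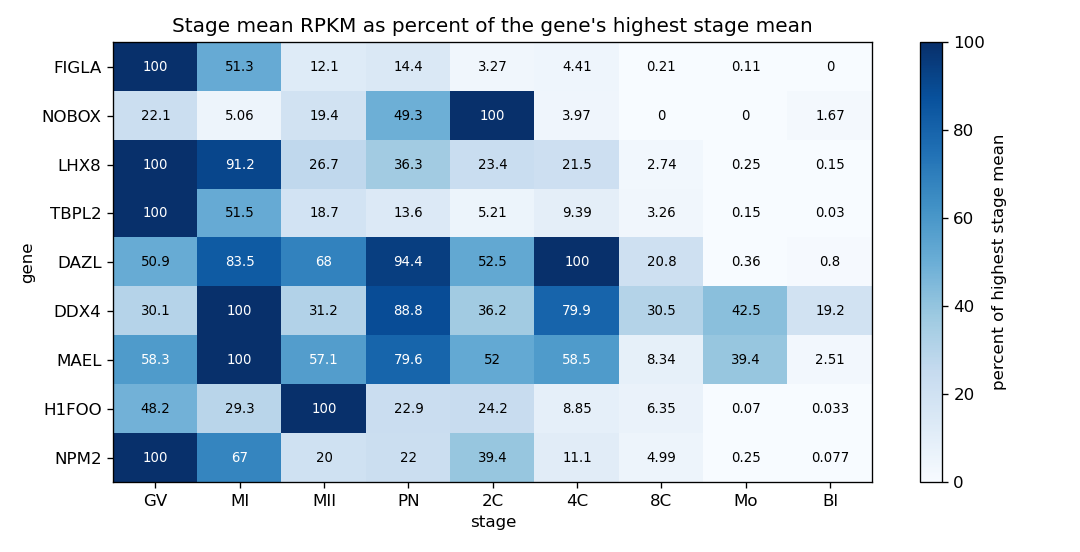
Rows are genes, columns are stages, and each cell gives the stage mean RPKM as a percent of that gene's highest stage mean. FIGLA is at 12.1% by MII and 3.27% by 2C, DAZL is still at 20.8% in 8C, and DDX4 is at 19.2% in Bl.

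As shares of the highest stage mean, MII oocytes kept 12.1% of FIGLA, 18.7% of TBPL2, 19.997% of NPM2 and 26.7% of LHX8. The 4C embryos held 4.41%, 9.39%, 11.1% and 21.5% of the same genes. DAZL peaked at 4C, H1FOO was at 8.85% there and 6.35% in 8C, and MAEL went from 58.5% in 4C to 8.34% in 8C and 39.4% in Mo. No gene of the 10 but DDX4 and MAEL was above 1% of its peak in the morula mean.

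Patterns over the 9 stage means were compared by Pearson's r as a description, with no test, since both genes of a pair come from the same libraries. FIGLA and TBPL2 had r = 0.968, LHX8 and TBPL2 0.964, FIGLA and LHX8 0.954, and LHX8 and NPM2 0.952. H1FOO was closest to NPM2 (0.939) and DAZL (0.932). DDX4 stood apart, with r of 0.33 to 0.722 to the others. Among 10564 other entries the genes most like each were ATG7 and OVCH1 for FIGLA (0.9895 and 0.9846), ADD2 and DPP6 for LHX8 (0.9929 and 0.9928), RESP18 and ZAR1 for TBPL2 (0.9927 and 0.9922), and MBOAT2 and ELAPOR2 for DAZL (0.9959 and 0.9947). For H1FOO they were MTMR3 and CDK2AP2 (0.9958 and 0.9942), for NPM2 ZNF749 and ENOX1 (0.9937 and 0.9933), for MAEL DOCK5 and ADAD1 (0.9633 and 0.9526), and for DDX4 MSL2 and SCGB1D4 (0.928 and 0.9148). RESP18 was 70.5 RPKM on average in GV and 0 in Bl, and MTMR3 136.7 and 0.26.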

How the data were processed

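Per the labels' protocols, whole cells were lysed and the RNA amplified (Clontech's SMARTer kit for low input), and libraries were built with a TruSeq DNA kit. The deposited table holds RPKM values made by the authors, with 22 columns matched to samples by title. Per the submitters' processing notes the build is Mmul_8.0.1. The table names no build, so positions are printed as deposited. The aligner, counter and annotation are not given in the sources used here. Symbols came from a name table by Ensembl identifier (8 of the 10 genes) or from the file (NPM2 and SOHLH1). Where several entries carried the name of a listed gene, only 1 was used, an Ensembl entry where there was one. Among these genes were TBP, GTF2B, GTF2A2, NPM1, HENMT1 and POU5F1, and reads in their other entries were left out.

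The limma fit (version 3.58.1, R 4.3.3) used log2(RPKM + 1) as the response, a mean for each stage, 13 residual degrees of freedom, trend and robust moderation, and Benjamini-Hochberg adjustment over 14312 entries. This scale understates changes of low genes. Other steps used Python 3.11.15. Depth came from features under 400 bp, where 3503 of 3942 values (88.86%) lay within 0.05 of whole reads. The steps were tested on simulated data.

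The 10 genes and the gene lists were chosen with earlier results of these data known. Named genes are the 10, TBP, TBPL1, TAF4B, SOHLH2, H1F0, NPM1, NPM3, per list the 2 called with the smallest adjusted p in each direction between oocytes, early and late embryos, and, for each of the 10 with a stage mean of 10 RPKM or more, the 2 entries with the highest r. ZP2, ZAR1, FOXO3, PIWIL1, GTSF1, GPAT2, TEX15 and HIST1H1D were named after their values were seen. Alternatives were a pseudocount of 0.1, no filter, a filter at 5 RPKM, median-of-ratios scaling and a replicate block. Fits of only the stages compared and fits with each library left out were run too. The stage of loss was also set at 5% and 25%, and with stage means in place of every library. Another 2 were chosen after the data were seen (oocytes without MI, and the stage of loss without each library).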

Additional observations from a re-analysis of the deposited data

How the results depend on the processing

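None of the calls reversed. Of the 31 calls of the 10 genes between stages or groups, 15 held in every alternative and 16 ended in some. Counts of called genes that moved by over 1.5 times were these. The share of all entries called is not given for these settings, nor for the counts without single libraries. These counts therefore have no background beside them. Fitting only the stages compared gave 2 from GV to MI (0 in the fit of all stages), 7 from MI to MII (2), 2 from MII to PN (1) and 2 from 4C to 8C (4). The same setting gave 3 called genes for 8C against Mo (5) and 0 for Mo against Bl (1). A pseudocount of 0.1 gave 0 from MI to MII, GV to MII (4) and MII to PN. Median-of-ratios scaling gave 1 from MI to MII, 2 from Mo to Bl and 3 from oocytes to early embryos (5), where NPM2 (adjusted p = 0.0569) and LHX8 (0.0912) lost their calls. It moved the median of all entries from -0.166 to 0 in that comparison and from -0.154 to 0.074 from early to late embryos. No filter gave 1 from MI to MII. The replicate numbers do not pair the libraries (correlation of same-numbered deviations, median 0.007); with a replicate block 1 gene was called from MI to MII, TBPL2 (adjusted p = 0.0486), and H1FOO (0.0735) and NPM2 (0.0524) were not.

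Without single libraries the counts ran from 0 to 4 for MI to MII and GV to MII, 0 to 1 for MII to PN and 2C to 4C, 2 to 4 for 4C to 8C, 3 to 5 for 8C to Mo, 5 to 6 for oocytes to early embryos, 8 to 9 for early to late embryos, 7 to 9 in the F test, and 7 to 18 for gene pairs. They stayed at 0 for GV to MI and PN to 2C and at 1 for Mo to Bl. The genes lost by 8C were 3 at 5%. The log2 ratio differences ran from -2.214 to -1.513 for TBPL2 to TBP and from -4.667 to -3.756 for H1FOO to H1F0. Promoter motifs were not run, since no sequences were used here. NOBOX and SOHLH1 rest on few reads, and stages of 2 or 3 libraries limit every step.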
